A study of Mus musculus with 6 samples.

Results

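The 10 genes described here encode proteins that neutrophils make late in their maturation: the calcium-binding proteins S100a8 and S100a9, the specific granule proteins Ngp, Camp, Ltf, Lcn2 and Mmp8, the gelatinase granule enzyme Mmp9, the secreted protein Retnlg and the oxidase subunit Cybb. They were found by their mouse Ensembl identifiers among the 49585 genes counted in each library, and all 10 were present and passed the filter on low counts. Gene expression had been measured by bulk RNA sequencing of haematopoietic stem cells (HSCs), sorted from the bone marrow of untreated C57BL/6 mice aged 8 to 16 weeks. Per the labels the sort kept Lin-, Kit+, Sca-1+, CD48-, CD150+, CD34- and CD201+ cells, which were then parted by surface CD38 into a high and a low fraction. There were 3 libraries of the high fraction (CD38 pos) and 3 of the low fraction (CD38 neg), each from the sorted cells of 10 pooled mice, and the design text joins them into 3 pairs. The sources used here do not say if both libraries of a pair share their mice. The p-values of the paired tests refer to the variation of the difference within pairs over these 3 pairs of pools. In edgeR and DESeq2 the variation of each gene was moderated towards that of other genes. A fitted SE or p-value there does not measure the gene's own spread over the 3 pairs alone. Only the fit without the block sets the populations against the spread between pools. As a check of the labels, Cd38 itself was at 37.0, 46.3 and 58.3 CPM in CD38 pos and 24.2, 35.6 and 23.9 CPM in CD38 neg replicates 1, 2 and 3, higher in the CD38 pos library of each pair.

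Neutrophils fill their granules in sequence as they mature in the bone marrow. Primary granules, with myeloperoxidase and serine proteases, form first, specific granules with lactoferrin and cathelicidin form next, and gelatinase granules form last. S100a8 and S100a9 pair to form calprotectin, an abundant cytosolic protein of neutrophils that binds calcium and withholds metals from microbes. Lineage depletion before an HSC sort is meant to remove mature blood cells, neutrophils among them.

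Upstream sequence of the genes is shown first because factors of the C/EBP family, C/EBP epsilon above all, are known to switch on specific granule genes. The 250 bases before the RefSeq start (build GRCm38.p6) were searched for TTNNGCAA, a string of the C/EBP type, on both strands; RefSeq windows were at hand for 9 of the 10 genes, and Mmp9 had none. Of these 9 windows, 6 held a match (S100a9, Ngp, Ltf, Lcn2, Mmp8 and Retnlg), against 9.6% of 32851 windows of all genes. The looser string TTNNGNAA, which contains the first, was in 7 of the 9 windows and in 36.8% of all windows, and GAGGAA, a string of the PU.1 type, was in 4 of the 9 and in 23.3%. These 3 strings were picked from several after their matches were seen, and a match is a description of letters, not of binding. The windows of S100a8, Ngp and Camp are printed because the counts of these 3 genes kept near-constant ratios to each other, and that of Lcn2 because its ratio to them varied widely. From each window the bases upstream of any untranslated region that GENCODE M21 annotates there are printed. Capitals mark each TTNNGCAA match on either strand, and all sequences run 5′ to 3′ along the gene's own strand.

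S100a8 (chr3:90668821-90668977, plus strand): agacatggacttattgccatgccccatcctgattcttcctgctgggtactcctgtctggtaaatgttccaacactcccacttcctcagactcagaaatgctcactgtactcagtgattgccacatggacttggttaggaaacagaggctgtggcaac
Ngp (chr9:110419558-110419746, plus strand): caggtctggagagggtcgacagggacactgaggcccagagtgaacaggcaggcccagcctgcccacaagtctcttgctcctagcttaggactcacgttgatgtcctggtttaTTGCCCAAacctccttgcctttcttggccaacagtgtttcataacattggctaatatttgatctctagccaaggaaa
Camp (chr9:109849618-109849706, minus strand): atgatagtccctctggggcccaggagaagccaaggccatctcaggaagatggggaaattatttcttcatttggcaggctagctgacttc
Lcn2 (chr2:32387798-32387989, minus strand): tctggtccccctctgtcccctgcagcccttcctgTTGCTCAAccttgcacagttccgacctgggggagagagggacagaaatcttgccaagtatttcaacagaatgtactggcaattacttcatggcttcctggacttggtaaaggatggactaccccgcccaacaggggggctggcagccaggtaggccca

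The window of Ngp held 2 matches, of which the upstream one is in the printed stretch, and that of Lcn2 held 1. The windows of S100a8 and Camp held none, so the 3 genes with near-constant ratios did not share this string there. Of the 250 bases searched, 161 for Camp and 93 for S100a8 were not upstream of the annotated untranslated region. The looser string was in the windows of S100a8 and Ngp but not in that of Camp. Shared regulation of the 3 genes was not tested. The printed stretches run from 89 bases for Camp to 192 for Lcn2. Those of S100a8, Ngp and Camp lie before the annotated gene, while that of Lcn2 lies inside it, because 1 GENCODE transcript of Lcn2 starts upstream of the whole window and has a coding exon that overlaps the printed bases.

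The 10 genes together took a large share of every library: 13.3%, 6.40% and 9.14% of all gene counts in CD38 pos replicates 1, 2 and 3, and 10.7%, 7.84% and 11.4% in the CD38 neg libraries of the same pairs. The highest and the lowest share were both in CD38 pos libraries, of pairs 1 and 2, with all CD38 neg libraries between them. The mean was 9.62% ± 3.49 (SD, n = 3) in CD38 pos and 9.98% ± 1.89 (SD, n = 3) in CD38 neg libraries. The paired differences were 2.67, -1.44 and -2.29 percentage points, so the share was higher in CD38 pos cells in pair 1 and lower in pairs 2 and 3. A two-sided exact permutation test within the 3 pairs gave p = 1 (Benjamini-Hochberg adjusted over 5 such tests, 1), where 0.25 is the smallest p that 3 pairs allow. The direction rested on single pairs: without pair 2 the mean difference was 0.19 and without pair 3 it was 0.62 percentage points.

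**Figure D1:**
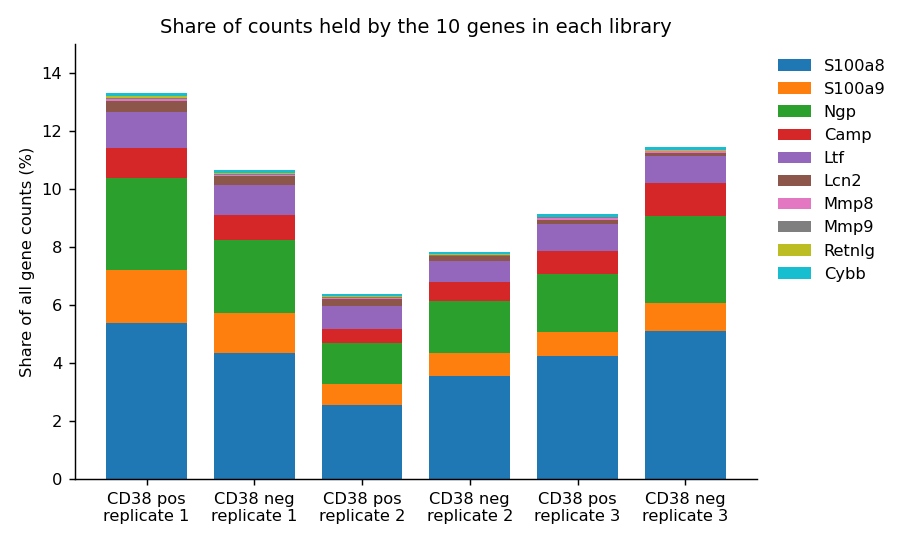
Share of all gene counts (%, y axis) held by the 10 genes in each of the 6 libraries (x axis), stacked by gene. The stacks run from 6.40% in CD38 pos replicate 2 to 13.3% in CD38 pos replicate 1, and S100a8 and Ngp are the largest blocks in every library.

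Most of this share came from a few of the genes. S100a8, S100a9, Ngp, Camp and Ltf held 93.6% to 97.3% of the 10 genes' reads in each library, and Mmp9 and Retnlg at most 0.732% and 0.318%. S100a8 had the most reads of all genes and Ngp the second most in each of the 6 libraries. The rank of Lcn2 ran from 17 in CD38 pos replicate 1 to 59 in CD38 neg replicate 3, and that of Retnlg from 296 to 1337. Levels of different genes were compared per kilobase of the GENCODE principal transcript, as the mean CPM over the 6 libraries divided by that length. On this scale S100a8 was highest at 87633 CPM per kb, followed by S100a9 at 21484, Ngp at 19287 and Camp at 11012. Ltf (3469), Lcn2 (2542) and Retnlg (446) came next, and Mmp8 (209), Cybb (201) and Mmp9 (108) were lowest. Neighbours in this order kept it in 6 of 6 libraries, except S100a9 and Ngp, which kept it in 4, and Mmp8 and Cybb, which kept it in 2 libraries (in 5 when divided by the length of all annotated exons).

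None of the 10 genes differed between the populations past an adjusted p of 0.05 when edgeR's quasi-likelihood model held the pairs as a block, where 0.0135% of the 14785 genes tested were called. At an unadjusted p under 0.05 there were 2 of the 10, Mmp9 and Mmp8, against 5.08% of all genes. Without the block there was 1, Mmp9, against 2.82%. In DESeq2 0 of the 10 passed the adjusted threshold, where 0.0744% of all genes did, and 2 had an unadjusted p under 0.05, against 4.41% of all genes. The CPM of the populations overlapped for each of the 10, where 6.53% of all genes had populations that did not overlap. Higher in all 3 pairs were 3 of the 10 (Lcn2, Mmp8 and Mmp9), against 13.2% of all genes, and lower in all 3 pairs were 0, against 11.3%. The median log2 fold change was 0.13 over the 10 genes and 0.00 over all genes tested, and 7 of the 10 were above 0 (all genes 50.1%). These counts come from a small list and are read as a description only. Because these are bulk libraries, fewer cells of a type and less RNA per cell cannot be told apart.

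The pairs did not share a direction. In pair 1 all 10 genes were higher in the CD38 pos library, by 0.40 to 0.97 on the log2 scale. In pair 2, 5 were higher and 5 lower, over a range of -0.63 to 0.69. In pair 3, 3 were higher and 7 lower, over a range of -0.71 to 0.84.

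**Figure D2:**
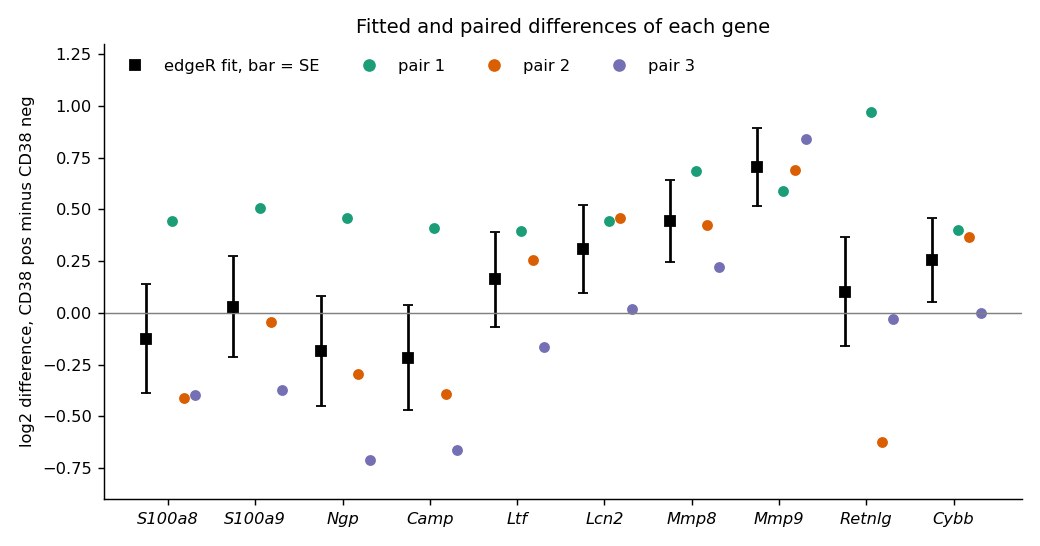
Log2 difference between the CD38 pos and the CD38 neg library (y axis) for each of the 10 genes (x axis): circles are the 3 pairs and squares the edgeR fit with its SE. Pair 1 lies above 0 for every gene, and Mmp9, with a fitted 0.71, is the gene whose 3 pairs lie closest together.

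S100a8 (ENSMUSG00000056054, chromosome 3, 90668978 to 90670035, plus strand) encodes the smaller subunit of calprotectin. It took 5.40%, 2.55% and 4.26% of counts in CD38 pos replicates 1, 2 and 3, and 4.34%, 3.55% and 5.11% in CD38 neg replicates 1, 2 and 3. CD38 pos replicate 2 was lowest and CD38 pos replicate 1 highest, so the populations overlapped over their whole range. Its level was 41735 ± 17680 CPM (SD, n = 3) in CD38 pos and 43444 ± 10035 CPM (SD, n = 3) in CD38 neg libraries, and its fitted log2 fold change was -0.12 ± 0.26 (SE; adjusted p of 0.967 in edgeR), with pairs at 0.44, -0.41 and -0.40. S100a9 (ENSMUSG00000056071, chromosome 3, 90692632 to 90695721, minus strand) encodes the partner subunit and lies in the same S100 cluster on the opposite strand. It took 1.81%, 0.742% and 0.828% of counts in CD38 pos replicates 1, 2 and 3, and 1.39%, 0.798% and 0.977% in CD38 neg replicates 1, 2 and 3. Both libraries of pair 1 were above the other 4. Its level was 11717 ± 7265 CPM (SD, n = 3) in CD38 pos and 10583 ± 3375 CPM (SD, n = 3) in CD38 neg libraries, with a log2 fold change of 0.03 ± 0.24 (SE; adjusted p of 0.992 in edgeR) and pairs at 0.51, -0.04 and -0.37.

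The reads of both calprotectin subunits did not keep one ratio. There were 2.99, 3.44 and 5.15 S100a8 reads per S100a9 read in CD38 pos replicates 1, 2 and 3, and 3.12, 4.44 and 5.23 in CD38 neg replicates 1, 2 and 3. The ratio was lower in the CD38 pos library of each pair, but the log2 differences were only -0.06 and -0.02 in pairs 1 and 3, against -0.37 in pair 2 (two-sided exact permutation p = 0.25, adjusted 0.625). The larger contrast was between pairs: pair 1 was at about 3 and pair 3 above 5, whichever the population. Without pair 2 the mean difference was -0.04.

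The specific granule genes were split in their direction. Ngp (ENSMUSG00000032484, chromosome 9, 110419747 to 110423012, plus strand), neutrophilic granule protein, took 3.17%, 1.41% and 2.0% of counts in CD38 pos replicates 1, 2 and 3, and 2.52%, 1.81% and 2.98% in CD38 neg replicates 1, 2 and 3. Camp (ENSMUSG00000038357, chromosome 9, 109847379 to 109849617, minus strand) encodes the cathelicidin antimicrobial peptide precursor, to whose family Ngp also belongs. It took 1.03%, 0.478% and 0.785% of counts in CD38 pos replicates 1, 2 and 3, and 0.849%, 0.655% and 1.13% in CD38 neg replicates 1, 2 and 3. Both genes were higher in CD38 pos cells in pair 1 and lower in pairs 2 and 3, and for both the populations overlapped. The level of Ngp was 22631 ± 11218 CPM (SD, n = 3) in CD38 pos and 24506 ± 7136 CPM (SD, n = 3) in CD38 neg libraries. Its log2 fold change was -0.18 ± 0.27 (SE; adjusted p of 0.955 in edgeR), with pairs at 0.46, -0.29 and -0.71. The level of Camp was 7858 ± 3446 CPM (SD, n = 3) in CD38 pos and 8836 ± 2832 CPM (SD, n = 3) in CD38 neg libraries. Its log2 fold change was -0.22 ± 0.25 (SE; adjusted p of 0.943 in edgeR), with pairs at 0.41, -0.39 and -0.66. The fitted values of S100a8, Ngp and Camp changed sign when a single pair was left out.

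Ltf (ENSMUSG00000032496, chromosome 9, 111019271 to 111042767, plus strand) encodes lactoferrin, the iron-binding protein of specific granules. It took 1.25%, 0.803% and 0.911% of counts in CD38 pos replicates 1, 2 and 3, and 1.04%, 0.703% and 0.931% in CD38 neg replicates 1, 2 and 3. It was higher in the CD38 pos library in pairs 1 and 2 and lower in pair 3. Its level was 10106 ± 3293 CPM (SD, n = 3) in CD38 pos and 8927 ± 2099 CPM (SD, n = 3) in CD38 neg libraries, and its log2 fold change 0.16 ± 0.23 (SE; adjusted p of 0.955 in edgeR). Lcn2 (ENSMUSG00000026822, chromosome 2, 32384633 to 32388252, minus strand) encodes lipocalin 2, which binds bacterial siderophores. It took 0.390%, 0.226% and 0.140% of counts in CD38 pos replicates 1, 2 and 3, and 0.313%, 0.172% and 0.126% in CD38 neg replicates 1, 2 and 3. Its share was ordered by pair rather than by population, since both libraries of pair 1 were above both of pair 2, and these above both of pair 3. The level of Lcn2 was 2621 ± 1551 CPM (SD, n = 3) in CD38 pos and 2031 ± 1011 CPM (SD, n = 3) in CD38 neg libraries, and its log2 fold change was 0.31 ± 0.21 (SE; adjusted p of 0.930 in edgeR), with pairs at 0.45, 0.46 and 0.02.

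Mmp8 (ENSMUSG00000005800, chromosome 9, 7558456 to 7568485, plus strand) encodes the neutrophil collagenase. Its level was 679, 391 and 675 CPM in CD38 pos replicates 1, 2 and 3, and 422, 291 and 578 CPM in CD38 neg replicates 1, 2 and 3. Each CD38 pos library was above its partner, but CD38 pos replicate 2 was below CD38 neg replicates 1 and 3. Its log2 fold change was 0.44 ± 0.20 (SE; adjusted p of 0.926 in edgeR), with an unadjusted edgeR p of 0.0407 and pairs at 0.69, 0.42 and 0.22. Without pair 2 or without pair 3 it was 0.44 and 0.55.

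**Figure D3:**
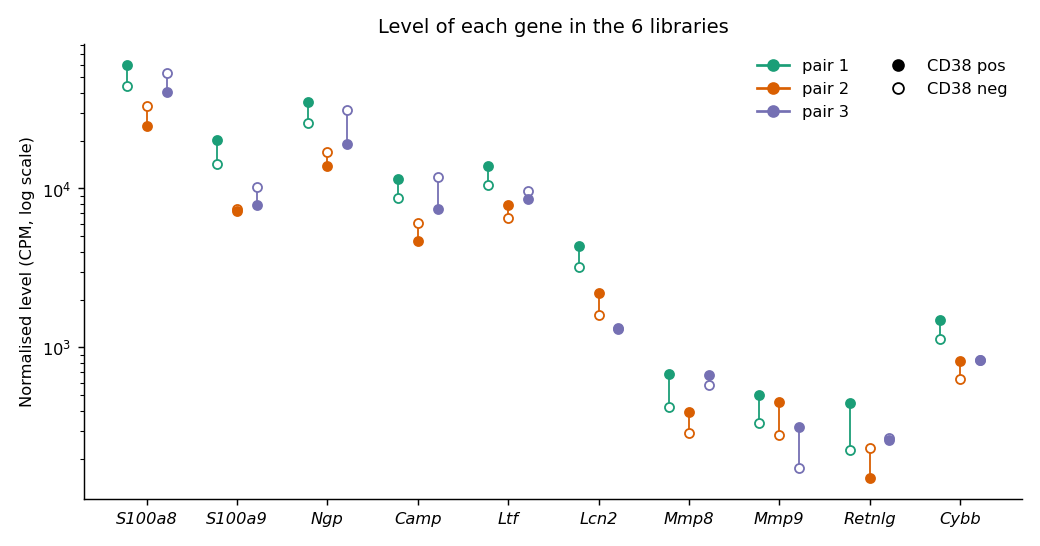
Normalised level (CPM, log scale on the y axis) of each gene (x axis) in the 6 libraries. Filled circles are CD38 pos and open circles CD38 neg libraries, a line joins each pair, and for Mmp9 the filled circle lies above the open one in all 3 pairs.

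Mmp9 (ENSMUSG00000017737, chromosome 2, 164940780 to 164955850, plus strand) encodes gelatinase B, the enzyme that names the gelatinase granule. It was at 504, 456 and 314 CPM in CD38 pos replicates 1, 2 and 3, and at 334, 283 and 175 CPM in CD38 neg replicates 1, 2 and 3. Each CD38 pos library was above its partner, and the populations overlapped only because CD38 pos replicate 3 was below CD38 neg replicate 1. The means were 424 ± 98.6 CPM (SD, n = 3) in CD38 pos and 264 ± 81.1 CPM (SD, n = 3) in CD38 neg libraries. The log2 fold change was 0.71 ± 0.19 (SE; adjusted p of 0.764 in edgeR), with an unadjusted edgeR p of 0.00232 and pairs at 0.59, 0.69 and 0.84. It did not pass the threshold over all genes under any alternative, where its adjusted p ran from 0.124 (DESeq2) to 0.994 (edgeR without the replicate block).

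Mmp9 is also made by monocytes and macrophages, so a list of 8 monocyte genes is set beside it. None of the 8 passed the adjusted threshold and 6 had a fitted value above 0 (all genes 50.1%). An unadjusted edgeR p under 0.05 was seen for 4 of the 8, with positive fitted values, against 5.08% of all genes. These 4 were Csf1r, the receptor of the macrophage growth factor, at 0.68, the coagulation factor gene F13a1 at 0.55, the chemokine receptor gene Cx3cr1 at 0.97 and the fibronectin gene Fn1 at 0.91. Cx3cr1 was not higher in pair 1, at -0.06. Ly6c2, a monocyte surface antigen gene, the highest of the list, had pairs at 0.91, -0.07 and -0.33, and Ms4a6c and Ctss were at -0.12 and -0.08. The unadjusted p-values of the 4 were 0.00678, 0.0200, 0.0193 and 0.00377 in edgeR, and the median of the list was 0.44. The summed level of the list was 1264 to 2839 CPM in CD38 pos and 1246 to 1589 CPM in CD38 neg libraries, and none of its genes was at 0 in any library. Its part in the Mmp9 values was not tested.

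Retnlg (ENSMUSG00000022651, chromosome 16, 48872621 to 48874496, plus strand) encodes resistin-like gamma, a secreted protein of maturing neutrophils. It was at 446, 150.3 and 263 CPM in CD38 pos replicates 1, 2 and 3, and at 227, 232 and 268 CPM in CD38 neg replicates 1, 2 and 3. CD38 pos replicates 1 and 2 were its highest and lowest libraries, while the CD38 neg libraries were close together. Its log2 fold change was 0.10 ± 0.26 (SE; adjusted p of 0.970 in edgeR), with pairs at 0.97, -0.63 and -0.03. Cybb (ENSMUSG00000015340, chromosome X, 9435252 to 9487771, minus strand) encodes gp91phox, the catalytic subunit of the phagocyte NADPH oxidase, which sits in specific granule membranes. It was at 1488, 816 and 832 CPM in CD38 pos and 1127, 632 and 834 CPM in CD38 neg replicates 1, 2 and 3. The populations overlapped, and the libraries of pair 3 were almost level. Its log2 fold change was 0.26 ± 0.20 (SE; adjusted p of 0.932 in edgeR).

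Of 5 genes for other subunits of the oxidase, 0 passed the adjusted threshold, 4 had fitted values above 0 (all genes 50.1%) and 1 below. Ncf1, which encodes the organising subunit p47phox, had the largest fitted value of these at 0.67 ± 0.23 (SE; adjusted p of 0.925 in edgeR), and an unadjusted edgeR p of 0.0118. It was at 610.4, 493 and 327 CPM in CD38 pos and 524, 193 and 238 CPM in CD38 neg replicates 1, 2 and 3. CD38 neg replicates 2 and 3 were the low ones, and the pairs were at 0.22, 1.35 and 0.46. Cyba, which encodes p22phox, the membrane partner of gp91phox, was at -0.13. There were 38.7, 45.9 and 54.3 Cyba reads per 100 Cybb reads in CD38 pos and 42.8, 66.6 and 75.3 in CD38 neg replicates 1, 2 and 3, a ratio noticed after the values were seen. It was lower in the CD38 pos library of all 3 pairs. Ncf4, Rac1 and Rac2 were at 0.09, 0.36 and 0.12.

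The composition of the 10 genes varied between libraries in an uneven way. For each of the 45 pairs of genes, the SD of the log2 ratio of their reads over the 6 libraries was taken, since such a ratio depends neither on library size nor on the total share. The most constant ratio was that of S100a8 to Camp, with an SD of 0.10 and values from 4.52 to 5.43. Ngp to Camp followed at 0.11, with 2.55 to 3.06 reads of Ngp per read of Camp, although the share of each gene more than doubled between libraries. Ltf and Cybb formed another constant couple at 0.12, with ratios from 9.33 to 11.6. The least constant ratios were Camp to Mmp9 at 0.87, Lcn2 to Mmp8 at 0.83 and Ngp to Mmp9 at 0.82. S100a8 and S100a9, whose products bind each other, had 0.36. These 6 libraries include 3 pairs, so the SDs describe them and carry no test.

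**Figure D4:**
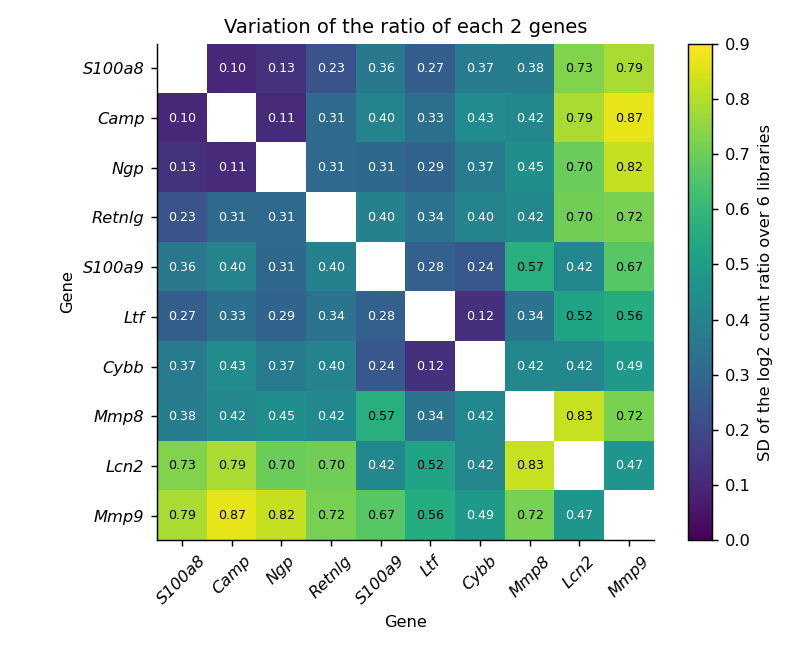
SD over the 6 libraries of the log2 ratio of read counts (colour and printed value) for each 2 of the 10 genes (both axes). S100a8, Camp and Ngp form a dark block of 0.10 to 0.13, and the rows of Lcn2 and Mmp9 hold the highest values, up to 0.87.

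Mmp9 and Lcn2 stood apart from the block of S100a8, Ngp and Camp. There were 4.38, 9.80 and 4.23 Mmp9 reads per 100 Camp reads in CD38 pos replicates 1, 2 and 3, and 3.87, 4.63 and 1.49 in CD38 neg replicates 1, 2 and 3. CD38 pos replicate 2 was highest and CD38 neg replicate 3 lowest, 6.57-fold apart. Reads of Lcn2 per 100 Camp reads were 37.7, 47.4 and 17.8 in CD38 pos and 36.8, 26.2 and 11.1 in CD38 neg replicates 1, 2 and 3. Both libraries of pair 3 were lowest here. Both ratios were higher in the CD38 pos library in 3 of 3 pairs; they were picked after the values were seen and are not tested. Across its ratios to the other 9 genes in the 3 pairs, Mmp9 was higher in the CD38 pos library in 25 of 27. Mmp8 was higher in 23 and Lcn2 in 19 of 27, while Camp was higher in 5 and S100a8 in 6. These 27 comparisons share a gene and the same 3 pairs, so they are not independent. They restate the paired differences of the single genes and carry no test.

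3 further ratios of gene groups were compared between the populations, in the same family of 5 exact tests. The 5 specific granule genes had 0.819, 0.899 and 0.768 reads per read of S100a8 plus S100a9 in CD38 pos replicates 1, 2 and 3, and 0.831, 0.775 and 0.859 in CD38 neg replicates 1, 2 and 3. This was the steadiest of the 4 group ratios, with a highest value 1.17 times the lowest, and the pairs differed in sign (-0.02, 0.21 and -0.16 on the log2 scale, mean 0.01, two-sided exact permutation p = 1, adjusted 1). Without pair 2 its mean was -0.09. With the mean of log2 counts over genes, in which each gene weighs the same, the differences were 0.0045, 0.32 and 0.13 and all 3 pairs were above 0 (mean 0.15, exact permutation p = 0.25). The gelatinase and late genes Mmp9 and Retnlg had 0.0145, 0.0210 and 0.0156 reads per read of the specific granule genes in CD38 pos replicates 1, 2 and 3. In CD38 neg replicates 1, 2 and 3 they had 0.0116, 0.0164 and 0.00816. The CD38 pos library had the higher ratio in 3 of 3 pairs, with log2 differences of 0.32, 0.36 and 0.93 and a mean of 0.54 (SD 0.34). Without pair 3 the mean was 0.34. With the mean of log2 counts over genes the pairs no longer shared a sign, at 0.30, -0.06 and 0.67 (mean 0.30, exact permutation p = 0.5). For summed counts the two-sided exact permutation p was 0.25, the smallest the 3 pairs allow, and 0.625 after adjustment.

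The 10 late genes were also set against 4 primary granule genes, Mpo, Elane, Prtn3 and Ctsg, which mark an earlier stage. There were 9.47, 5.96 and 10.4 reads of the late genes per read of these 4 in CD38 pos replicates 1, 2 and 3, and 11.2, 8.38 and 10.1 in CD38 neg replicates 1, 2 and 3. CD38 pos replicate 2 had the lowest ratio. The paired log2 differences were -0.24, -0.49 and 0.04 (mean -0.23, two-sided exact permutation p = 0.5, adjusted 0.833). Without pair 2 the mean was -0.10. With the mean of log2 counts over genes in place of summed counts the differences were -0.14, -0.14 and 0.38. Their mean was 0.03, of the opposite sign, although only pair 3 was above 0. None of the 4 primary granule genes passed the adjusted threshold; Mpo, the peroxidase of these granules, had a log2 fold change of 0.17 ± 0.26 (SE; adjusted p of 0.957 in edgeR).

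**Figure D5:**
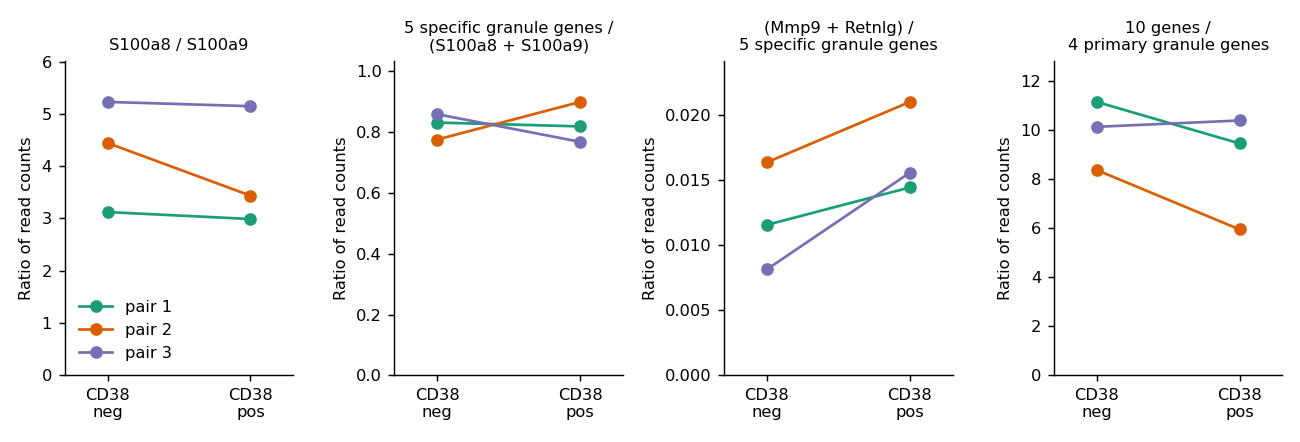
Ratio of read counts (y axis, from 0) in the CD38 neg and CD38 pos library of each pair (x axis, lines join pairs) for 4 ratios. The ratio of Mmp9 plus Retnlg to the specific granule genes is higher on the CD38 pos side in all 3 pairs, and S100a8 to S100a9 parts the pairs, from 2.99 to 5.23.

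The list of 24 other late neutrophil genes held 0 genes past the adjusted threshold. It had 16 fitted values above 0 (all genes 50.1%) and 8 below, with a median log2 fold change of 0.23. An unadjusted edgeR p under 0.05 was seen for 3 of the 24, with positive fitted values, against 5.08% of all genes. These were Olfm4, a specific granule glycoprotein gene, at 0.61, Adam8, a membrane protease gene, at 0.55, and Trem1, an activating receptor gene, at 0.44, and each had an adjusted p of at least 0.925. Their unadjusted p-values were 0.0150, 0.0338 and 0.0423. The highest genes of the list, Chil3 (chitinase-like protein 3), Anxa1 (annexin A1) and Cd177 (a neutrophil surface protein), were at 0.16, -0.22 and 0.24. Ly6g, the surface antigen that defines mouse neutrophils, was at 246, 111 and 94.1 CPM in CD38 pos and 155, 85.4 and 101 CPM in CD38 neg replicates 1, 2 and 3. Transcripts of the defining antigen were thus present in each of the 6 libraries. The summed level of the list was 9815 to 22575 CPM in CD38 pos and 9899 to 15328 CPM in CD38 neg libraries, and no gene of it was at 0 in any library.

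Of 7 transcription factor genes of the neutrophil lineage, 0 passed the adjusted threshold. Cebpe, which encodes C/EBP epsilon, was at 52.2, 38.2 and 69.7 CPM in CD38 pos and 52.5, 73.9 and 93.9 CPM in CD38 neg replicates 1, 2 and 3. It was lower in the CD38 pos library in 3 of 3 pairs, though the log2 difference was only -0.01 in pair 1. Its log2 fold change was -0.46 ± 0.21 (SE; adjusted p of 0.926 in edgeR), with an unadjusted edgeR p of 0.0490. Spi1, which encodes PU.1, was at 0.06, Gfi1 at 0.06 and Cebpa at 0.02. Cebpb and Cebpd, of the same family as Cebpe, were at 0.26 and 0.22, and Runx1 was at -0.37. Of the 7, 5 had fitted values above 0 (all genes 50.1%) and 2 below. Lower in all 3 pairs was 1 of the 7, against 11.3% of all genes, and higher was 1 (Cebpd), against 13.2%. An unadjusted edgeR p under 0.05 was seen for 1 of the 7, against 5.08% of all genes.

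Among 12 other S100 genes, 7 passed the filter on low counts and 0 of these passed the adjusted threshold. The highest of them were S100a11 at 138 CPM and S100a10 at 113 CPM as means over the 6 libraries, with log2 fold changes of 0.33 and -0.11. S100a1 was at -0.48 (unadjusted edgeR p 0.0425, adjusted 0.926). S100a16 had the largest fitted value, 2.27 ± 0.66 (SE; adjusted p of 0.890 in edgeR), on 21, 30 and 38 reads in CD38 pos and 7, 11 and 1 reads in CD38 neg replicates 1, 2 and 3. The summed level of the 12 was 391 to 552 CPM in CD38 pos and 416 to 474 CPM in CD38 neg libraries, and S100a14, S100b and S100g were at 0 in at least 1 library.

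The genes whose levels stayed in the most constant ratio to the summed level of the 10 were Serpinb1a, Pglyrp1, Gapt, Evi2a, Topbp1, Mastl, Pilrb1, Tmem216, Pilrb2 and Il12a. The SD of their log2 ratio over the 6 libraries ran from 0.0614 for Serpinb1a to 0.114 for Il12a, among 8726 genes with a mean of at least 10 CPM and a median SD of 0.534. Serpinb1a encodes an inhibitor of neutrophil serine proteases, and Pglyrp1 a peptidoglycan-binding protein of neutrophil granules. The others, Topbp1, Mastl and Tmem216 among them, are given by name only, and the list is not read as a set of neutrophil genes. Among the 10 genes themselves, each set against the sum of the other 9, Ngp was the most constant at 0.12. Camp had 0.16 and S100a8 0.17. Lcn2 at 0.66 and Mmp9 at 0.74 had the largest SDs of the 10.

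Markers of other cells were measured in the same libraries. A list of 12 stem cell genes, Kit, Ly6a, Slamf1 and Procr of the sort among them, had a summed level of 863 to 1858 CPM in CD38 pos and 1090 to 2471 CPM in CD38 neg libraries, none at 0. By library it was 863, 1144 and 1858 CPM in CD38 pos and 1090, 2471 and 1524 CPM in CD38 neg replicates 1, 2 and 3. CD38 pos replicate 1, with the highest share of the 10 genes, was lowest, but CD38 pos replicate 2, with the lowest share, was also below CD38 pos replicate 3 and CD38 neg replicates 2 and 3. Of the 12 stem cell genes 0 were called. At an unadjusted edgeR p under 0.05, 4 of the 12 had negative fitted values and 1 a positive one, against 5.08% of all genes in both directions. The list of 9 erythroid genes had 2632 to 9318 CPM in CD38 pos and 3795 to 7741 CPM in CD38 neg libraries. Of it 0 were called and 8 of 9 fitted values were below 0. Over all genes tested, 0.0135% were called and 50.1% had a fitted value above 0. The 9 B lineage genes had 156 to 284 CPM in CD38 pos and 374 to 1782 CPM in CD38 neg libraries. The antibody heavy chain gene Igha, 1 of them, was called (all genes 0.0135%). The 6 T and NK cell genes had 123 to 323 CPM in CD38 pos and 168 to 281 CPM in CD38 neg libraries, and the 6 eosinophil, basophil and mast cell genes had 748 to 1842 CPM in CD38 pos and 947 to 1467 CPM in CD38 neg libraries, with 0 called in either list. Nkg7, a cytotoxic granule gene, made up nearly all of the T and NK sum, at 314, 118 and 126 CPM in CD38 pos and 185, 163 and 277 CPM in CD38 neg replicates 1, 2 and 3. The T cell gene Cd3e was at 0 in all 3 CD38 neg libraries and in CD38 pos replicate 3. The libraries labelled as HSCs therefore held transcripts of genes of mature blood cells beside those of stem cell genes. The part of any of these in the values of the 10 genes was not tested.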

How the data were processed

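Bulk RNA sequencing of 6 libraries was analysed. The authors deposited for every library 1 headerless table of raw counts by Ensembl gene, all whole numbers. Per the submitters' processing notes, cutadapt, STAR, HTSeq 0.6.1p1 and the builds GRCm38 and mm10 were used; strand setting and annotation release are not given in the sources used here. Totals ran from 16771180 to 18558610 counts, so 3 counts equal 0.162 to 0.179 CPM. The 95% Wilson interval of any share printed was at most 0.0155 percentage points to either side, for counting error only.

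Symbols matched 49326 of 49585 identifiers. Positions and lengths came from GENCODE M21 (GRCm38), where none of the 10 genes overlaps another gene, and promoters from RefSeq (GRCm38.p6). All genes were fitted in R 4.3.3 with edgeR 4.0.16: filterByExpr on the groups, TMM scaling, pair plus population, quasi-likelihood F-test, Benjamini-Hochberg adjustment over 14785 genes. Fold changes are CD38 pos relative to CD38 neg. CPM use TMM-adjusted library sizes, and paired differences use log2 CPM with a prior count of 2. Deviations from the group means correlated at 0.34, 0.12 and 0.24 within pairs 1, 2 and 3, each above 0.1, and the pairs come from the design text. Libraries of a population differed beyond counting noise (chi-square over its degrees of freedom at least 51.4). Shares and ratios were compared by exact permutation within pairs in scipy 1.17.1.

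The fit was tested on data simulated for 14785 genes. It called 46 of 100 genes changed 2-fold and 97 of 100 changed 4-fold, with 0 of wrong sign, and 13 unchanged genes. Smaller changes, such as those fitted for the 10 genes, were not simulated. A gene that was not called is therefore not shown to be equal in both populations. All 10 genes are named; list genes are named as the highest or as those with an unadjusted p under 0.05. Genes most like the 10 have the smallest SD of the log2 ratio to their sum. 1 gene of the lists is not reported here. Members and lists were chosen with earlier results of these data known. Alternatives were DESeq2 1.42.0, other scalings and filters, no block, other denominators and leaving out each pair.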

Additional observations from a re-analysis of the deposited data

How the results depend on the processing

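The count of 0 of the 10 genes past the adjusted threshold stayed at 0 under all 10 alternatives run. At an unadjusted p under 0.05 there was 1 gene (Mmp9) without the replicate block (all genes 2.82%) and 2 in DESeq2 (all genes 4.41%). The number was 1 without pair 1, 3 without pair 2, 1 without pair 3 and 2 under the other scalings and filters. For these the share of all genes at that p was not counted. In that fit with no replicate block, the fold change (log2) of Mmp9 was 0.68 and that of S100a8 -0.06, and it changed no call or sign of the 10. Of 100 alternative values for single genes, 94 kept their sign and 6 changed it, each when a pair was left out: S100a8 (0.011 without pair 2, 0.014 without pair 3), S100a9 (-0.21 without pair 1), Ngp (0.080 without pair 3), Camp (0.0085 without pair 3) and Retnlg (-0.33 without pair 1). Over the 3 fits that leave out a pair, the value spanned -0.41 to 0.014 for S100a8, -0.21 to 0.23 for S100a9, -0.50 to 0.080 for Ngp, -0.53 to 0.0085 for Camp, -0.33 to 0.46 for Retnlg, 0.64 to 0.76 for Mmp9 and 0.32 to 0.55 for Mmp8. The mean difference ranged from -1.87 to 0.62 percentage points for the share of the 10 genes, and on the log2 scale from -0.22 to -0.043 for S100a8 to S100a9, -0.092 to 0.096 for specific granule to S100 genes, 0.34 to 0.65 for late to specific granule genes and -0.37 to -0.10 for the 10 genes to primary granule genes. With mean log2 counts over genes, specific granule to S100 genes came to 0.15 and late to specific granule genes to 0.30. The 10 genes to primary granule genes came to 0.032 in that setting, of the opposite sign, with only pair 3 above 0. The cause was not tested. Over all genes, 2 were called in the test as reported and from 0 (no replicate block) to 80 (no filter beyond 1 count) under the alternatives, with 11 in DESeq2 and 41 without pair 2. No scaling moved the median of all genes by 0.1 on the log2 scale. With all 10 genes at or above 150.3 CPM in every library, each value rests on at least 2657 reads.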

Other observations

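Other lists fixed with the 10 genes are given as values. Of 10 genes for receptors and inhibitors of their products, 6 passed the filter on low counts and 0 the adjusted threshold in edgeR (0 also at an unadjusted p under 0.05). Bsg, which encodes basigin, a receptor of S100a9, was the highest at 462 CPM over the 6 libraries, with a log2 fold change of 0.07. Tlr4, the innate immune receptor of calprotectin, was at 38.3 CPM and -0.13, with pairs at -0.13, -1.01 and 0.77. The gelatinase inhibitor gene Timp1 had 1, 3 and 5 reads in CD38 pos and 8, 3 and 0 reads in CD38 neg replicates 1, 2 and 3, and Timp4 had 2 reads in CD38 pos replicate 3 and 0 in the other libraries.

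The summed level of 9 erythroid genes was 9318, 4014 and 2632 CPM in CD38 pos and 7741, 5573 and 3795 CPM in CD38 neg replicates 1, 2 and 3. As with Lcn2, both libraries of pair 1 were above both of pair 2, though in pair 3 the CD38 neg library was close to CD38 pos replicate 2. Mitochondrially encoded genes took 4.28%, 1.44% and 2.69% of counts in CD38 pos and 3.68%, 3.74% and 4.43% in CD38 neg replicates 1, 2 and 3. CD38 pos replicate 2, with the lowest share of these, also had the lowest share of the 10 genes.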
